A study of Mus musculus with 18 samples.

Results

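The hippocampus was compared between mice carrying TN-XXL and their wild type littermates, on 3 arrays for each genotype. These 6 arrays were chosen by their titles out of 18, the other 12 being of skeletal muscle and heart of the same genotypes. TN-XXL, which the series title places in muscle and brain, is a genetically encoded calcium indicator that joins a calcium-binding domain of troponin C to a cyan and a yellow fluorescent protein. Both groups were of the C57BL/6 strain, and the transgenic group is titled +/+ by the labels. No other allele or agent is named for either group. The sources used here do not give the promoter or insertion site of the transgene, nor the age, sex and time of day at collection of the mice. The labels do not say that each array came from a separate animal. P-values therefore reflect the spread among these samples alone, and part of it may be technical.

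The hippocampus holds glutamatergic pyramidal cells in its CA fields, granule cells in the dentate gyrus, and GABA interneurons between them. Calcium entering these neurons acts through calmodulin, its kinases and calcineurin, and switches on immediate early genes within minutes of activity. Hippocampal cells also run a circadian clock, and they respond to glucocorticoid hormones from the blood. The comparison asks whether transcript levels in this tissue differ between mice with and without the indicator.

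Values are log2 signals made by the authors with RMA, 1 for each probe set and array, and differences are transgenic minus wild type. Array medians were 3.68 to 3.71. Correlations over all probe sets were 0.987 to 0.993 between arrays of 1 genotype and 0.988 to 0.991 between arrays of different genotypes. The labelled tissue matched its markers on every array. The vesicular glutamate transporter gene Slc17a7 stood at 11.03 to 11.13 on wild type and 11.10 to 11.17 on transgenic arrays, and the GABA synthesis gene Gad1 at 9.18 to 9.24 and 9.28 to 9.30. The fast skeletal troponin gene Tnnt3 stood below the array medians, at 2.58 to 3.39 and 2.52 to 3.04. Y-linked Kdm5d stood at 6.02 to 6.29 and 6.16 to 6.22, and Xist, which is expressed from the inactive X chromosome, at 1.59 to 1.95 and 1.66 to 1.97. Kdm5d above and Xist below the array medians, as on every array here, is the pattern of male tissue.

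No probe set passed. In limma's moderated test 0 of 35382 probe sets (0%) had an adjusted p under 0.05, and the lowest adjusted p was 0.623. At an unadjusted p under 0.05, 2451 probe sets (6.93%) differed, 1053 of them higher (2.98%) and 1398 lower (3.95%) in transgenic arrays. With 1 probe set per gene, 469 of 18781 genes (2.5%) were higher and 719 (3.83%) lower at that level. The median difference over these genes was −0.01.

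The arrays bounded most differences closely. The median SE of a gene was 0.09, and the median half-width of its 95% interval was 0.23 on the log2 scale. For 99.7% of genes the interval lay within 1 log2 unit of 0 in both directions, and for 86.6% within 0.5. These shares bound array signals and include dim genes, where a narrow interval may reflect low signal, which was not tested. Of the 18781 genes, 11085 were brighter than the median of all values (3.70), and for 99.8% of those the interval lay within 1. With 1 probe set per gene, fitted differences ran from −0.65 to 0.89, with 66 genes beyond 0.5 and 0 beyond 1. Probe sets without a gene symbol, 12362 of 35382, had a wider median SE (0.15) and made up 36 of the 50 smallest p-values. Of those 12362, 114 differed by more than 1 log2 unit, as did 1 of the 21153 with 1 symbol.

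Of the 47 lists described, the immediate early genes, the rapid transcriptional response of neurons to activity, had the most members at that level. Of 28 measured members, 14 were higher and 0 lower at an unadjusted p under 0.05, beside 2.5% and 3.83% of all genes. Their median difference was 0.18. None passed after adjustment. This list and the others below were chosen with earlier results of these data known. The shares over all genes are therefore set beside them as a description and are no independent benchmark.

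Egr1, which encodes a zinc-finger transcription factor, stood at 7.06, 7.35 and 7.25 on wild type arrays 1 to 3 and at 7.93, 7.98 and 7.91 on transgenic arrays 1 to 3. The difference was 0.72 ± 0.09 (SE), or 1.65-fold, with an adjusted p of 0.623 (limma, n = 3 arrays in each group). All transgenic arrays lay above all wild type arrays, and the gap between the groups was wider than the range within either. Its relative Egr2 stood at 3.81, 4.22 and 4.11 in wild type and at 5.26, 4.94 and 4.59 in transgenic arrays (0.89 ± 0.19, adjusted p = 0.638 by limma). The groups did not overlap, though the transgenic arrays were more widely spread than for Egr1.

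Fos, a subunit of the AP-1 transcription factor, stood at 3.66, 3.79 and 3.65 in wild type and 4.27, 4.20 and 3.99 in transgenic arrays (0.45 ± 0.10), the wild type mean being near the array medians. Arc, which encodes a protein of the postsynaptic density that removes AMPA receptors from synapses, stood at 7.41, 7.67 and 7.55 against 8.19, 8.15 and 7.87 (0.52 ± 0.12). For both genes the 3 transgenic arrays were above the 3 wild type arrays, and transgenic array 3 was the lowest of its group. The nuclear receptor gene Nr4a1 had the same order of transgenic arrays and no overlap, at 7.27, 7.82 and 7.45 against 8.32, 8.27 and 7.93 (0.66 ± 0.17, adjusted p = 0.685 by limma).

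The other members higher at this level were Per1, Egr3, Junb, Fosb, Nr4a3, Ier3, Dusp1, Fosl2 and Egr4, by 0.21 to 0.44, named after their values were seen. In 15 of the 28 genes the transgenic arrays lay wholly above the wild type arrays, beside 5.98% of all genes. In 1, the AP-1 gene Jun, they lay wholly below (−0.12 ± 0.07), beside 8.63%. Npas4, a transcription factor gene induced by calcium entry in neurons, stood at 5.15, 5.22 and 4.80 against 5.22, 5.37 and 4.65, and its difference was 0.02 ± 0.22. Its groups overlapped, with a 95% interval from −0.50 to 0.55. The growth factor gene Bdnf differed by 0.12 ± 0.06 (95% interval −0.03 to 0.28). The count of 14 was 9 without transgenic array 2, and 8 when all 18 arrays shared 1 estimate of the spread.

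**Figure D1:**
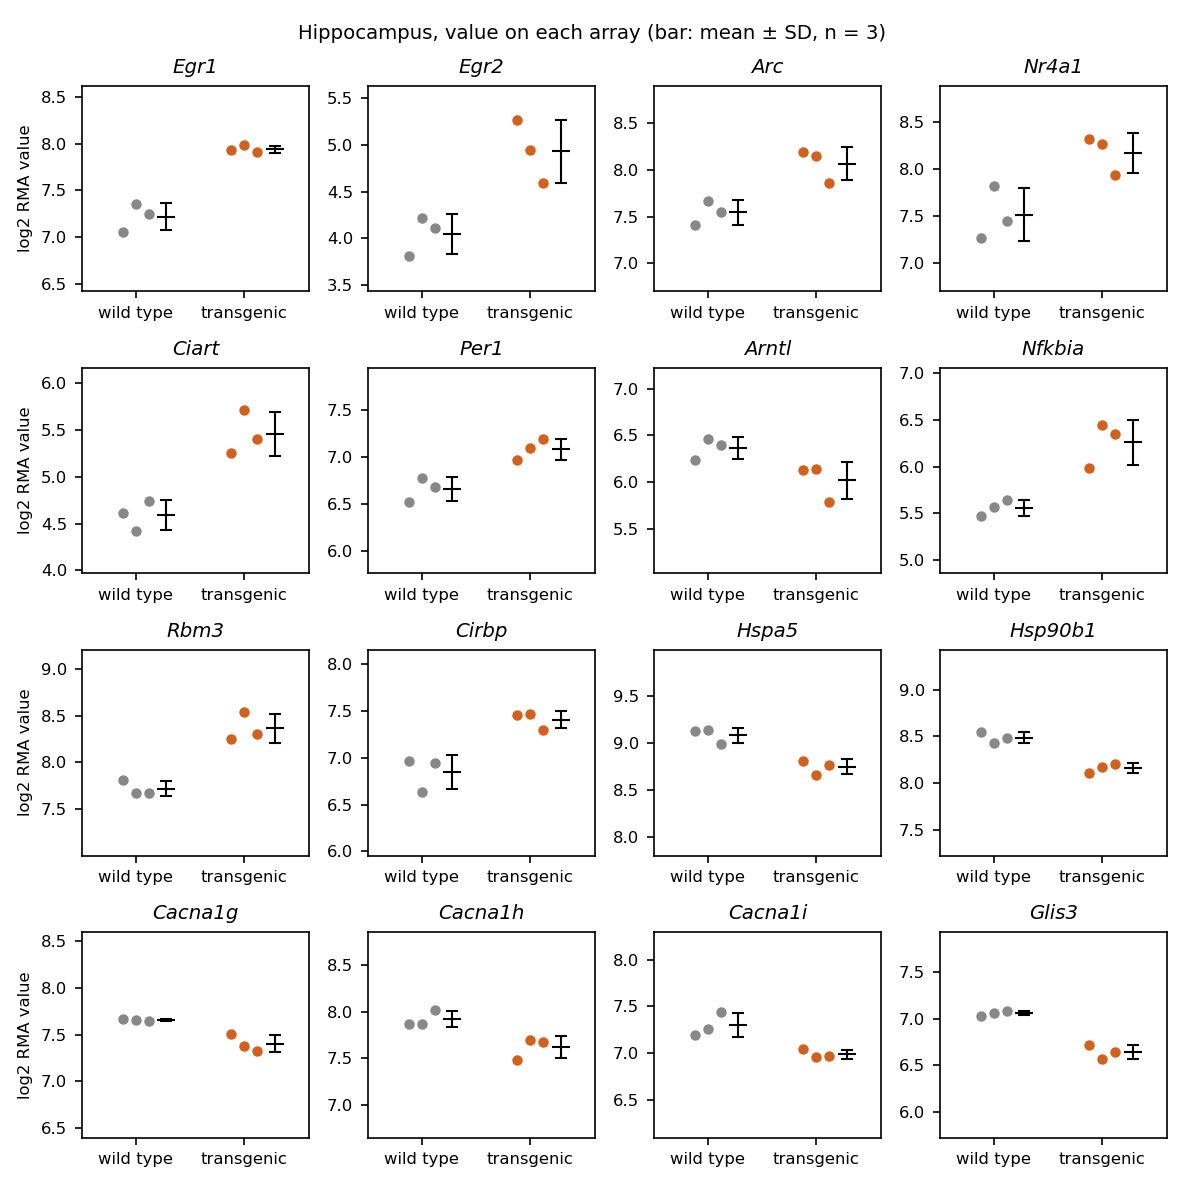
Log2 RMA value (vertical axis) of 16 genes on each hippocampus array, with wild type arrays in grey and transgenic arrays in orange, and the mean ± SD of each group (n = 3) as a bar. Every panel spans the same range on the log2 scale. In all 16 panels the orange and grey points do not overlap, and none of the differences passed adjustment. Of all genes, 5.98% had transgenic arrays wholly above the wild type arrays and 8.63% wholly below. The genes were picked after their values were seen.

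Clock genes were next. The mammalian clock is a loop in which the activator pair Clock and Arntl turns on the Per, Cry and Ciart genes, whose products repress it. Promoters of its targets can carry the E-box CACGTG, to which that pair binds. Of 22 measured clock genes, 6 were higher (27.3%) and 1 lower (4.55%) at an unadjusted p under 0.05, beside 2.5% and 3.83% of all genes. The median difference was 0.07, and none passed.

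The 250 bases before the RefSeq gene start (GRCm38.p6) of the 2 clock repressor genes with the smallest p are shown for their E-boxes, in capitals. The Ciart window is chr3:95882229-95882478 on the minus strand and the Per1 window is chr11:69098699-69098948 on the plus strand, both written 5′ to 3′ along the gene:
Ciart: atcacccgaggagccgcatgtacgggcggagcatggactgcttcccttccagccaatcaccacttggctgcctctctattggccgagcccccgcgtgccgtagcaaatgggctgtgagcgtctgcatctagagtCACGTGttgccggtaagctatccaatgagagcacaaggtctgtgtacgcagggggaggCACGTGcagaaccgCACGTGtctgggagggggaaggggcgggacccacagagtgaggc
Per1: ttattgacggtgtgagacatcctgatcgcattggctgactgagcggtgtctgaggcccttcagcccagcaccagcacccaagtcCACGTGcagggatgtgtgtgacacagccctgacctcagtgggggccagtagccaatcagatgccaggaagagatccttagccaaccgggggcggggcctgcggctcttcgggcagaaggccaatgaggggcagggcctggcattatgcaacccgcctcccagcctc

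Ciart holds 3 matches and Per1 1. Both strands were searched, and the motif reads the same on each. Among clock genes with a window, 3 of the 5 higher at an unadjusted p under 0.05 (Ciart, Cry1 and Per1) and 2 of the 13 others (Bhlhe41 and Tef, with Arntl among those without) held the motif in the 300 bases from 250 before to 50 after the start. Of all 32851 windows of that length, 7.15% held it. Counted by gene, 9.57% of the 14723 measured genes with a window held it in any of their windows. These matches describe letters and are not evidence of binding here.

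Ciart stood at 4.61, 4.42 and 4.74 on wild type and 5.26, 5.72 and 5.40 on transgenic arrays. The difference was 0.87 ± 0.15, or 1.83-fold (adjusted p = 0.638 by limma), and the groups did not overlap. The other Ciart probe set stood at 4.80, 4.98 and 4.74 against 4.78, 5.37 and 5.35 (0.33, with an upper 95% limit of 0.75), and its groups overlapped. Per1 stood at 6.52, 6.77 and 6.68 against 6.97, 7.10 and 7.19 (0.43 ± 0.10, adjusted p = 0.641 by limma), and Per2 at 6.13, 6.12 and 6.16 against 6.24, 6.62 and 6.66 (0.37 ± 0.12). Both had all transgenic arrays above all wild type arrays, as did 5.98% of all genes, and for Per2 transgenic array 1 lay close to the wild type values.

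The activator gene Arntl was the one member lower, at 6.24, 6.46 and 6.40 against 6.13, 6.14 and 5.79 (−0.35 ± 0.12, adjusted p = 0.715 by limma). Its transgenic arrays lay wholly below the wild type arrays, as in 8.63% of all genes. The deubiquitinase gene Usp2 differed by 0.26 ± 0.08, the nuclear receptor gene Nr1d2 by 0.33 ± 0.13 and the repressor gene Cry1 by 0.24 ± 0.09. Clock differed by −0.10 ± 0.06, and Npas2, which can stand in for Clock, by 0.00 ± 0.08 with a 95% interval of −0.19 to 0.19. The count of 6 was 3 without wild type array 2 and 2 without transgenic array 2, and 3 with all 18 arrays in the fit. Without transgenic array 2 the count lower was 2, and it was 0 when wild type array 2, wild type array 3 or transgenic array 3 was left out. Without transgenic array 3 the difference in Arntl was −0.23.

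**Figure D2:**
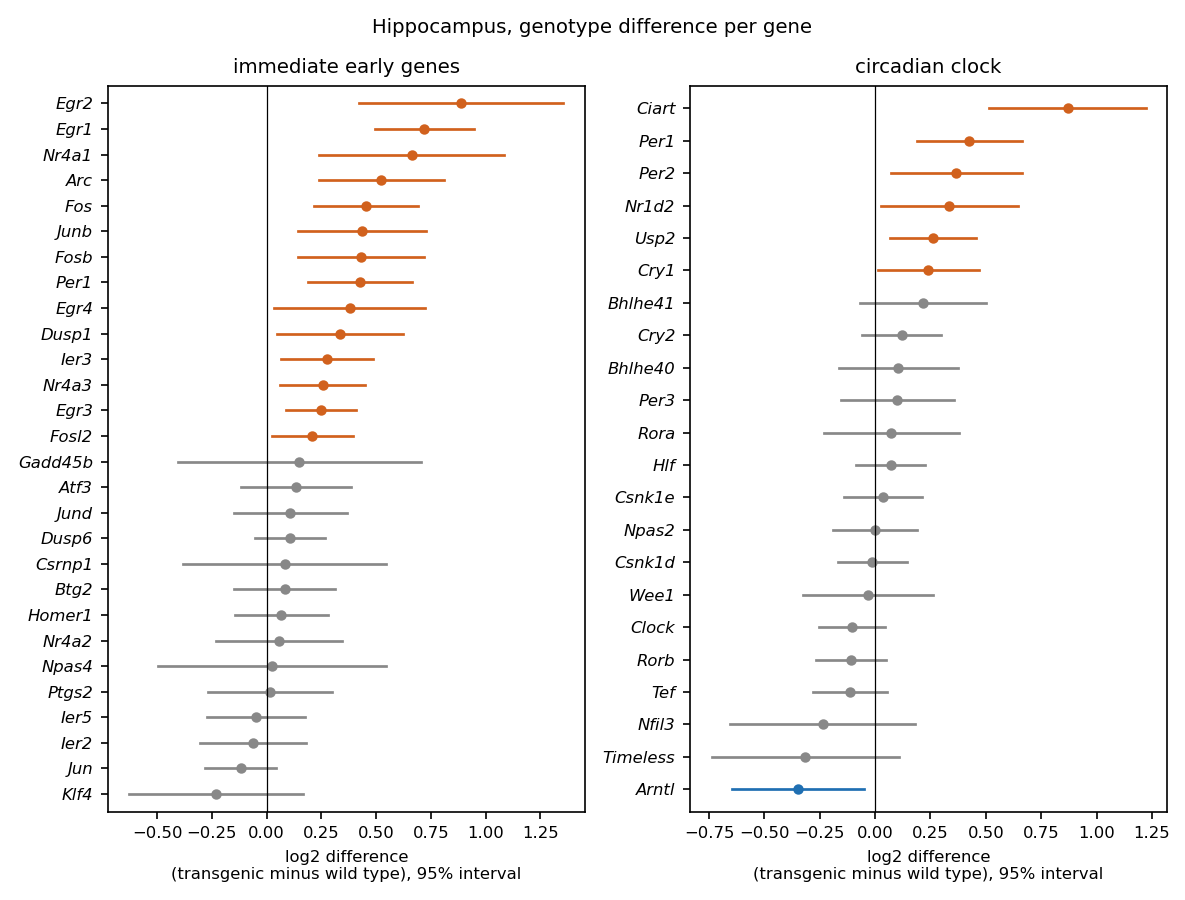
Genotype difference in hippocampus (horizontal axis, log2, transgenic minus wild type) of each measured immediate early gene and clock gene, with its 95% interval. Orange marks higher and blue lower at an unadjusted p under 0.05, and grey the others, with 14 orange genes of 28 on the left and 6 orange and 1 blue of 22 on the right. Of all genes, 2.5% were higher and 3.83% lower at that level.

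The clock genes of hippocampus were set against those of muscle and heart by testing the difference of genotype differences in a fit to all 18 arrays. Over all probe sets 472 (1.33%) passed at an adjusted p under 0.05, as did 369 of 18781 genes (1.96%) and 12 of the 22 clock genes. The count of probe sets was 247 to 292 with any 1 hippocampus array left out. For Arntl the difference was −0.35 in hippocampus and −2.65 in the mean of muscle and heart, which is 2.31 apart (adjusted p = 1.24e-04, limma). For Per2 the values were 0.37 and 2.30 (−1.94 apart, adjusted p = 4.76e-04, limma), and for Ciart 0.87 and 2.79 (−1.92 apart, adjusted p = 0.0123, limma). Of these 12 genes, Tef (−0.12 in hippocampus, 1.24 in the striated tissues) and Wee1 (−0.03 and 1.32) had differences on opposite sides of 0. Npas2 stood at 0.00 in hippocampus, with a sign that turned on centring the arrays, and at −1.85 in the striated tissues. The others had both differences on the same side. The calls on Cry2, Nfil3 and Wee1 ended when single hippocampus arrays were left out (adjusted p up to 0.0755, limma). Whether the tissues came from the same animals is not stated in the labels.

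**Figure D3:**
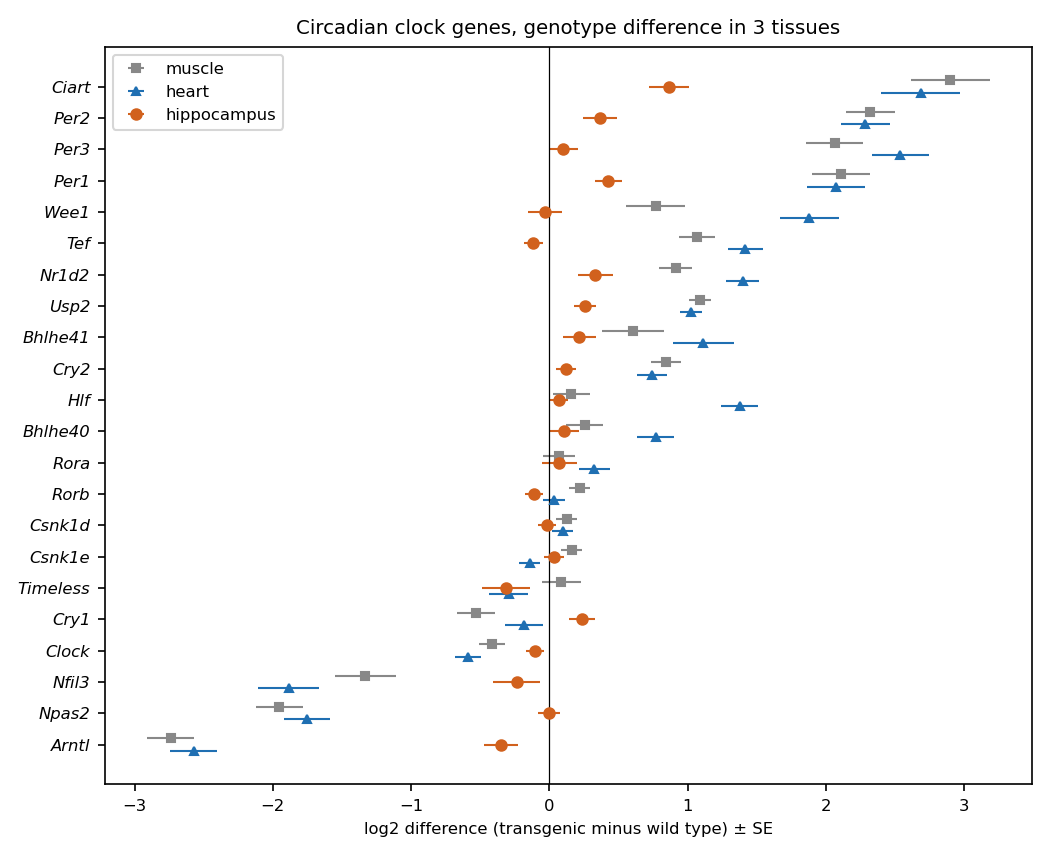
Genotype difference (horizontal axis, log2, transgenic minus wild type, ± SE) of 22 clock genes in hippocampus (orange), skeletal muscle (grey) and heart (blue), ordered by the mean of the striated tissues. SEs of hippocampus come from its 6 arrays and those of muscle and heart from all 18. Hippocampal points stay between −0.35 for Arntl and 0.87 for Ciart.

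Glucocorticoid-responsive genes, which the hormone receptor induces in many tissues, had the largest list median, 0.34 beside −0.01 over all genes. Of 18 measured members 18 had a difference above 0, where 46.2% of all genes did. The members share the same 6 arrays, so these signs are not independent. The mean level of the list per array was 6.23 to 6.51 in wild type and 6.55 to 6.81 in transgenic arrays. At an unadjusted p under 0.05, 7 were higher and 0 lower, beside 2.5% and 3.83% of all genes. Nfkbia, the inhibitor of NF-kB, stood at 5.47, 5.57 and 5.65 on wild type and 5.99, 6.45 and 6.35 on transgenic arrays (0.70 ± 0.13, or 1.63-fold, adjusted p = 0.638 by limma). No wild type array reached the lowest transgenic array. Ddit4, an inhibitor of mTOR signalling, stood at 6.11, 6.23 and 6.38 against 6.80, 6.60 and 6.73 (0.47 ± 0.10), and the kinase gene Map3k6 at 3.52, 3.38 and 3.48 against 3.87, 3.98 and 4.31 (0.59 ± 0.13). These also did not overlap.

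Per1 and Dusp1, which stand in the immediate early list as well, were among the 7, as were Sult1a1 (0.34 ± 0.12) and Klf9 (0.18 ± 0.07). In some members the groups overlapped. The kinase gene Sgk1 stood at 6.21, 6.38 and 6.95 against 6.63, 7.31 and 7.31 (0.57 ± 0.26), and the receptor co-chaperone gene Fkbp5 at 5.74, 5.75 and 5.89 against 5.85, 6.09 and 6.32 (0.30 ± 0.13). In both, wild type array 3 was above transgenic array 1. The metallothionein genes Mt1 and Mt2 differed by 0.21 ± 0.10 and 0.22 ± 0.10, again with overlap. The count of 7 was 4 without wild type array 1 and 4 with all 18 arrays in the fit, and 11 with an intensity trend in the prior.

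A group of endoplasmic reticulum chaperones pointed the other way. The unfolded protein response raises these genes when protein folding in the reticulum is overloaded. Of 21 measured members 5 were lower and 0 higher at an unadjusted p under 0.05, beside 3.83% and 2.5% of all genes, the median difference was −0.10, and none passed. The windows of 3 of the 5 are shown because they hold the endoplasmic reticulum stress element, which is CCAAT, 9 bases of any kind and CCACG. Both strands were searched, and the matches are in capitals. They are Hspa5 at chr2:34771840-34772089 on the plus strand, Hsp90b1 at chr10:86705445-86705694 on the minus strand and Pdia6 at chr12:17266339-17266588 on the plus strand, from RefSeq (GRCm38.p6):
Hspa5: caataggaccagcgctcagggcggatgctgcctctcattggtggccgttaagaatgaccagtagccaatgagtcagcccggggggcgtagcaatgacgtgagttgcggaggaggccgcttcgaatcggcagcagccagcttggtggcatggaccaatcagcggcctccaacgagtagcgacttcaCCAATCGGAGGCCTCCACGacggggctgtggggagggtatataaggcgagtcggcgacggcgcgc
Hsp90b1: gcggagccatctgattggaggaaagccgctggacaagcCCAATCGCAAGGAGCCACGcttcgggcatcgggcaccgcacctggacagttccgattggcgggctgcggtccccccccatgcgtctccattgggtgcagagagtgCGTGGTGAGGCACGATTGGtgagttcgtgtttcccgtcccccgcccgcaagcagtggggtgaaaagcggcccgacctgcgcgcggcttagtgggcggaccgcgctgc
Pdia6: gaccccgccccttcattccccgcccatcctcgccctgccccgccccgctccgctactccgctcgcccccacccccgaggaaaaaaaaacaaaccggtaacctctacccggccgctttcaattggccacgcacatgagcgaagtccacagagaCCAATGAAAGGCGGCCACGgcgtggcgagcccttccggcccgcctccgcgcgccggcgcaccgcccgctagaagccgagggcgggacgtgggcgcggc

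This element was held by 0.119% of all windows and, counted by gene, by 0.136% of measured genes with a window. It also stood in the windows of 4 of 13 members above that p (Calr, Canx, Creld2 and Dnajc3). The element was chosen with earlier results of these data known. Its matches describe letters and are not evidence of binding or regulation here.

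Hspa5, the main chaperone of the reticulum, stood at 9.13, 9.14 and 8.99 on wild type and 8.81, 8.66 and 8.77 on transgenic arrays (−0.34 ± 0.08, adjusted p = 0.641 by limma). Hsp90b1, its partner chaperone, stood at 8.55, 8.43 and 8.49 against 8.10, 8.17 and 8.21 (−0.33 ± 0.07, adjusted p = 0.638 by limma). All transgenic arrays lay below all wild type arrays in both. The disulfide isomerase gene Pdia6 differed by −0.28 ± 0.07, Sdf2l1 by −0.45 ± 0.12 and the transcription factor gene Xbp1 by −0.33 ± 0.10. In the amino acid arm of the response Atf4 differed by 0.05 ± 0.09, Asns by 0.03 ± 0.09 and Trib3 by −0.03 ± 0.14. In cytosolic heat shock genes 1 of 13 was lower, Hsph1 at −0.29 ± 0.07, beside 3.83% of all genes.

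Genes of calcium signalling were examined by role. The calmodulin genes Calm2 and Calm3 differed by 0.09 ± 0.06 and 0.03 ± 0.06, the kinase gene Camk2a by 0.01 ± 0.08 and the calcineurin subunit gene Ppp3ca by 0.01 ± 0.08. Their 95% intervals stayed within −0.18 and 0.24. Rcan1, a calcineurin regulator and target, stood at 6.08, 6.13 and 6.35 against 6.17, 6.11 and 6.27, with overlapping groups and a difference of 0.00 ± 0.10, beside −1.03 in the mean of muscle and heart (1.03 apart, adjusted p = 0.00484, limma). Of 14 genes of calcineurin and NFAT and 23 of EF-hand buffers and sensors, 0 were at an unadjusted p under 0.05 in either direction. Of 19 calmodulin and kinase genes 3 were higher and 1 lower, beside 2.5% and 3.83% of all genes. Among them were Camk1g at 0.29 ± 0.09 and Camk4 at 0.21 ± 0.08.

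Among 18 genes of voltage-gated calcium channels 0 were higher and 3 lower at an unadjusted p under 0.05, beside 2.5% and 3.83% of all genes, with a median of −0.05. These 3 are the pore subunits of the T-type channels, which open at low voltage. They were singled out after their values were seen. Cacna1g stood at 7.67, 7.66 and 7.65 against 7.51, 7.38 and 7.33 (−0.26 ± 0.07), Cacna1h at 7.86, 7.87 and 8.02 against 7.49, 7.70 and 7.68 (−0.30 ± 0.09), and Cacna1i at 7.20, 7.26 and 7.44 against 7.04, 6.95 and 6.97 (−0.31 ± 0.09). No transgenic array reached a wild type array in any of them, as in 8.63% of all genes, and their adjusted p was 0.690 to 0.696 (limma). Cacna1g is also a marker of thalamus and habenula, tissue that can adhere in a dissection. Of 12 such markers 1 was higher and 3 lower at that level (Cacna1g, Synpo2 and Prkcd), with a median of 0.01. Their mean level per array was 4.84 to 4.96 in wild type and 4.88 to 4.90 in transgenic arrays, and their part in the result was not tested. The pore genes of the P/Q-type, N-type and R-type channels, Cacna1a, Cacna1b and Cacna1e, differed by −0.03 ± 0.07, 0.02 ± 0.06 and −0.04 ± 0.08. Of the troponin C genes, from whose family the indicator's domain comes, Tnnc1 differed by −0.45 ± 0.15 and Tnnc2 by 0.37 ± 0.15, both near or below the array medians. Leaving out 1 transgenic array moved these to −0.29 (array 2) and 0.25 (array 1). The transgene was not analysed here.

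**Figure D4:**
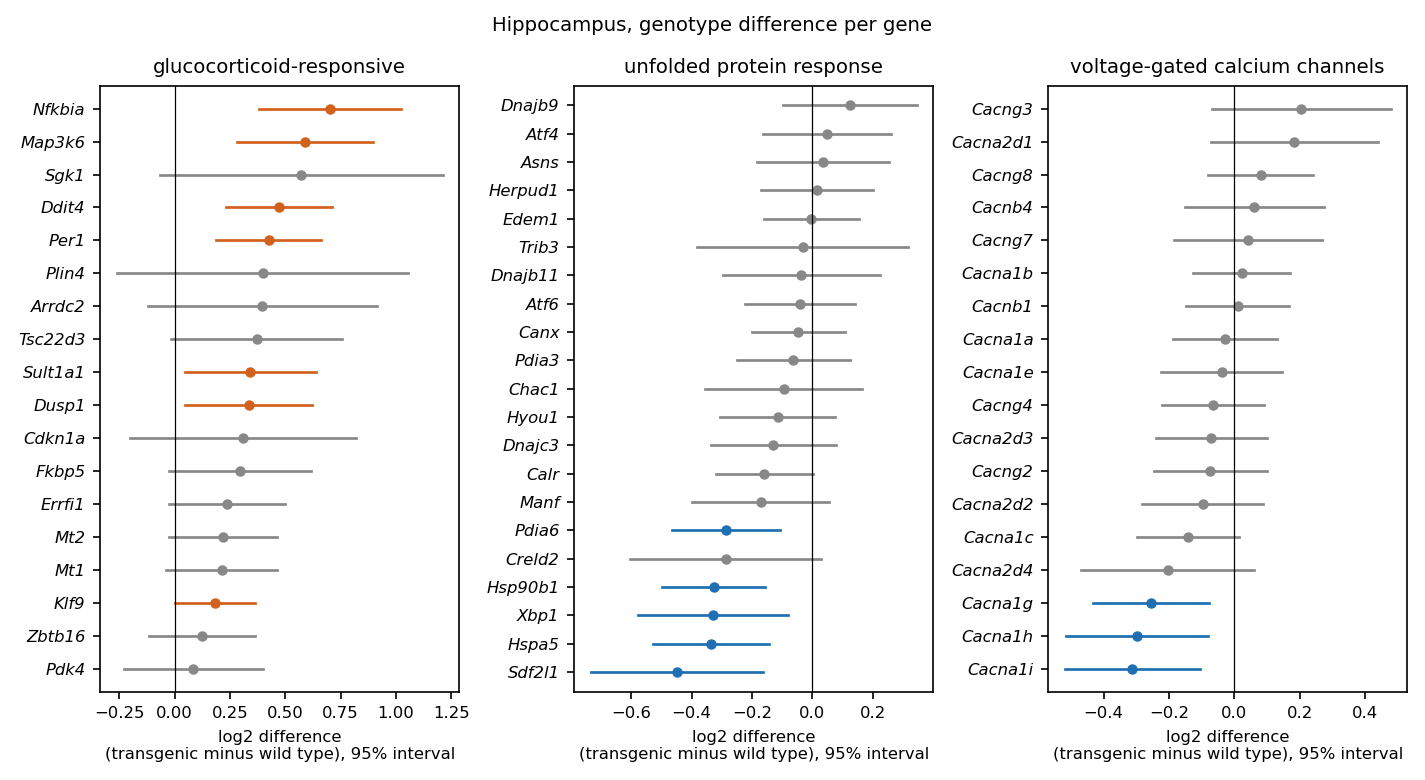
Genotype difference in hippocampus (horizontal axis, log2, transgenic minus wild type) with 95% intervals for genes responsive to glucocorticoids, of the unfolded protein response and of voltage-gated calcium channels. Orange marks higher and blue lower at an unadjusted p under 0.05. All 18 points on the left lie above 0, 5 chaperone and response genes are blue in the middle, and the 3 T-type genes are blue on the right. Of all genes, 46.2% were above 0, and 2.5% were higher and 3.83% lower at that level.

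Synaptic genes were examined as lists of the release site, the postsynaptic side and receptors. Of 22 genes of synaptic vesicles and release and 18 of the postsynaptic density, 0 were at an unadjusted p under 0.05, with list medians of 0.02 and 0.03. The AMPA receptor genes Gria1 and Gria2 differed by 0.02 ± 0.07 and 0.09 ± 0.07, and the NMDA receptor genes Grin2a and Grin2b by 0.08 ± 0.11 and 0.07 ± 0.08. The kainate receptor genes Grik4 and Grik3 were the 2 lower of 21 glutamate receptor genes (−0.23 ± 0.08 and −0.21 ± 0.08), beside 3.83% of all genes. Kcnma1, the calcium-activated BK potassium channel, stood at 8.38, 8.39 and 8.19 against 8.67, 8.77 and 8.81 (0.43 ± 0.09, adjusted p = 0.638 by limma), and Kcnn2, the SK2 channel that calcium also opens, differed by 0.20 ± 0.06. The groups did not overlap in either. Kcnma1, Kcnn2 and Kcnj3 were the 3 higher of 26 potassium and sodium channel genes, beside 2.5% of all genes. Kcnf1 was the 1 lower, beside 3.83%.

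Markers of cell types gave the following. General markers of pyramidal and granule neurons had 0 of 15 at an unadjusted p under 0.05 in either direction (median 0.05), CA1 markers 0 of 10 and reactive glia 0 of 13. Dentate gyrus markers had a median of −0.13 with 12 of 14 below 0, where 46.2% of all genes were above 0. At an unadjusted p under 0.05, 2 of the 14 were lower, beside 3.83% of all genes. These were Glis3 and the tryptophan dioxygenase gene Tdo2. Glis3 stood at 7.03, 7.06 and 7.08 against 6.71, 6.57 and 6.65 (−0.42 ± 0.07), without overlap, and Tdo2 differed by −0.51 ± 0.17. The granule cell regulator Prox1 stood at 8.06 ± 0.09 (SD) in wild type and 7.94 ± 0.07 in transgenic arrays (−0.12 ± 0.08), with overlap. In these bulk samples fewer cells of a type and less RNA per cell cannot be told apart.

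Vessel markers were split. The smooth muscle actin gene Acta2 stood at 7.28, 7.25 and 7.45 against 7.94, 7.78 and 7.57 (0.43 ± 0.11). The 12 markers of pericytes and smooth muscle had a median of 0.19, with 2 higher and 0 lower, beside 2.5% and 3.83% of all genes. Their mean level per array was 5.27 to 5.43 in wild type and 5.41 to 5.60 in transgenic arrays. Of 14 endothelial markers 2 were higher and 3 lower: the glucose transporter gene Slc2a1 differed by 0.49 ± 0.12, and the VEGF receptor gene Kdr by −0.56 ± 0.22, or −0.36 without transgenic array 3. The choroid plexus marker Ttr varied more within groups than between them, at 3.25, 2.99 and 4.64 against 3.41, 3.35 and 5.16. Array 3 of each group was the high one. The part of these cell types in the results above was not tested.

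Other genes with the smallest p were taken in each direction, 15 higher and 15 lower, and had an adjusted p of 0.623 to 0.638 (limma). All 30 had groups that did not overlap, which choosing by p on the same arrays favours. Of all genes, 5.98% had transgenic arrays wholly above the wild type arrays and 8.63% wholly below. Rbm3, a cold-inducible RNA-binding protein, stood at 7.81, 7.67 and 7.68 against 8.25, 8.54 and 8.30 (0.64 ± 0.10, 1.56-fold). Its 3 probe sets differed by 0.61 to 0.65 in hippocampus. The set whose array values are given differed by −1.04 in muscle (adjusted p = 8.05e-04, limma) and −0.04 in heart (adjusted p = 0.960, limma). Hippocampus and the mean of these tissues were 1.18 apart (adjusted p = 0.00798, limma). Rbm3 had been chosen for a small p on the same hippocampus arrays, so this test is not independent of that choice. The other cold-inducible gene of that family, Cirbp, picked after its values were seen, stood at 6.96, 6.64 and 6.94 against 7.46, 7.47 and 7.30 (0.56 ± 0.11). Neither gene's groups overlapped.

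Further higher genes were Ace, angiotensin-converting enzyme (0.40 ± 0.07), the nuclease gene Dffb of apoptosis (0.64 ± 0.11), the chemokine gene Ccl17 (0.74 ± 0.13), the phospholipase gene Pla2g4e (0.52 ± 0.10) and Zbtb8a (0.39 ± 0.07). Klhdc7b, Olfr1499, Ephx3, Nudt19 and Gbp9 (0.34 to 0.54) and the probe set named for Mirlet7e (0.46 ± 0.08) made up the rest beside Egr1, Ciart, Rbm3 and Nfkbia. Whether that probe set reports the microRNA or its host transcript was not tested. Wild type means of Klhdc7b, Dffb, Ccl17, Olfr1499, Ephx3, Nudt19 and Gbp9 (2.23 to 3.50) lay below the array medians.

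Further lower genes included Magef1 (−0.44 ± 0.07), the receptor phosphatase gene Ptpru (−0.39 ± 0.07), the mitochondrial gene Chchd5 (−0.49 ± 0.09), the choline kinase gene Chkb (−0.56 ± 0.10), the chromatin reader gene L3mbtl3 (−0.40 ± 0.07) and the metalloprotease gene Adam8 (−0.48 ± 0.07). Magef1 stood at 6.25, 6.16 and 6.15 against 5.78, 5.72 and 5.73, with a gap between groups wider than the range in either. Mlec, a lectin of the endoplasmic reticulum, differed by −0.40 ± 0.07 by the probe set with the smallest p and by −0.26 by its brightest one. Ddx11, Gm6498, Cnr2, Glis3, Slc35g1, Inhbb, Hebp2 and Nup210l completed the 15 (−0.61 to −0.38), of which Ddx11, Gm6498, Cnr2, Inhbb and Nup210l stood below the array medians in wild type. The Y-linked translation factor gene Eif2s3y, outside the 30, differed by 0.61 ± 0.12, while Kdm5d and Uty differed by 0.05 ± 0.09 and −0.21 ± 0.10.

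Interferon and antigen presentation genes had a median of 0.12, with 2 of 22 higher and 0 lower, beside 2.5% and 3.83% of all genes. The class I gene H2-K1 stood at 4.30, 4.49 and 4.42 against 5.12, 5.32 and 4.56 (0.60 ± 0.20), and Ifit2 differed by 0.36 ± 0.11. Transgenic array 3 stood near the wild type arrays for H2-K1. In oxidative phosphorylation 0 of 34 genes were higher and 1 lower, in ribosomal proteins 1 of 27 was higher, and in the proteasome 0 of 23 were in either direction.

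**Figure D5:**
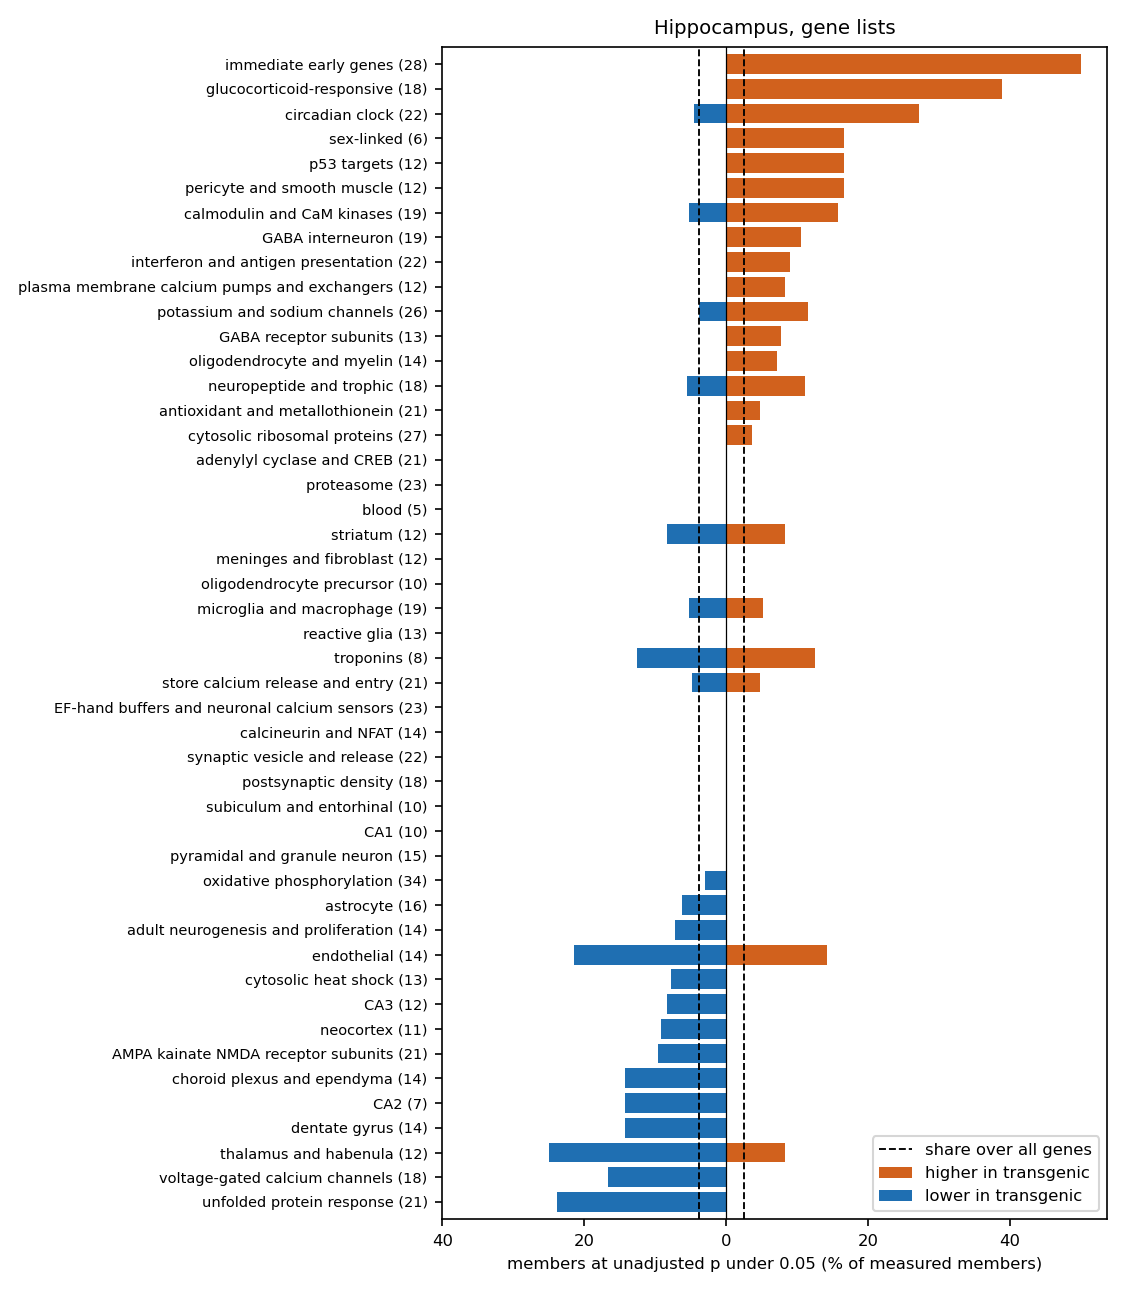
Share of the measured members of each of 47 gene lists (horizontal axis, percent) at an unadjusted p under 0.05, higher in transgenic hippocampus to the right in orange and lower to the left in blue. The number of measured members stands in brackets and dashed lines mark the shares over all genes, 2.5% higher and 3.83% lower. The immediate early, glucocorticoid-responsive and clock lists reach furthest to the right. All lists were chosen with earlier results of these data known.

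Genes that differed in both striated tissues were read in hippocampus last, a comparison added after values were seen. In the fit to all 18 arrays, where 8.15% of probe sets passed in muscle and 3.19% in heart, 303 genes had an adjusted p under 0.05 in muscle and in heart in 1 direction. In the hippocampal fit 202 of them (66.7%) had the same sign, 34 of these at an unadjusted p under 0.05 and 8 others in the opposite direction at that level. In muscle and heart 123 of the 303 were higher and 180 lower. Of all genes, 46.2% were above 0 in hippocampus, and 2.5% were higher and 3.83% lower at that p. Their median in the direction of the striated tissues was 0.04 in hippocampus and 0.61 in the mean of muscle and heart. Examples of the 34 outside the clock and chaperone genes are the tetraspanin gene Tspan4 (0.41), Tob2 (0.35), Map3k6 (0.59) and the malonyl-CoA decarboxylase gene Mlycd (−0.31).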

How the data were processed

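RNA of hippocampus, skeletal muscle and heart was hybridised to Affymetrix whole-transcript arrays. Per the submitters' processing notes, the authors made the deposited log2 signals by RMA, using R 2.10.0. The sources used here name neither the chip definition nor the set of arrays that RMA treated together. Of 35382 probe sets, 21153 had 1 gene symbol in the platform annotation (18781 genes), 1867 several and 12362 none.

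The 6 hippocampus arrays were fitted alone with limma 3.58.1 in R 4.3.3 (2 group means, 4 residual and 2.22 prior degrees of freedom, no block). All tests were two-sided, and p-values were Benjamini-Hochberg adjusted over all probe sets. An exact permutation test of 3 against 3 arrays cannot go below 0.1. The named genes were the 15 with the smallest p in each direction, a set of candidate genes (31 of 36 measured) and up to 4 members with the smallest p of each list described; others named were picked after their values were seen. In lists and candidates a gene is its brightest probe set. The 47 lists hold 802 members, 718 measured. Tissue differences came from 1 fit to all 18 arrays with 6 group means. Members, lists, motifs and the lists described were chosen with earlier results of these data known. The procedure was tested on simulated data. Alternatives tried were a fit to all 18 arrays, a block on the replicate number, centring, quantile normalization, fewer probe sets, a trended robust prior, array weights, a threshold of 0.1, the mean of all probe sets, and leaving out each array. Promoter windows are from RefSeq (GRCm38.p6). Figures were drawn with matplotlib 3.10.9. The number of arrays limits the precision.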

Additional observations from a re-analysis of the deposited data

Results flagged for a closer look

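For 20 named genes the genotype difference in hippocampus differed from the mean of those in muscle and heart in the limma fit to all 18 arrays (adjusted p under 0.05). Below, a value is the first minus the second on the log2 scale.

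Of the clock genes, Arntl (2.31), Npas2 (1.85) and Nfil3 (1.37) had a positive value, with differences of −2.65, −1.85 and −1.61 in the striated tissues and −0.35, 0.00 and −0.24 in hippocampus. Per3 (−2.20), Per2 (−1.94), Ciart (−1.92), Per1 (−1.67), Tef (−1.36), Wee1 (−1.36), Nr1d2 (−0.82), Usp2 (−0.80) and Cry2 (−0.67) had a negative value. All 9 were higher in the striated tissues, and in hippocampus Tef (−0.12) and Wee1 (−0.03) were below 0 and the other 7 above it. The metallothionein gene Mt2 stood 2.23 higher in the striated tissues and 0.22 in hippocampus (−2.01), and Rcan1 1.03 apart.

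In the rest hippocampus and the mean of the striated tissues stood on opposite sides of 0. Rbm3 was at 0.64 in hippocampus, −1.04 in muscle and −0.04 in heart (1.18), Klhdc7b at 0.54, 0.06 and −0.18 (0.61), and Ephx3 at 0.38, −0.09 and −0.50 (0.68). Gm6498 was at −0.49, 0.42 and 0.17 (−0.78), L3mbtl3 at −0.40, 0.68 and 0.03 (−0.75), and Chchd5 at −0.49, 0.22 and 0.19 (−0.70). Klhdc7b in muscle was on the same side of 0 as in hippocampus. These 6 had been chosen for a small p in hippocampus, so their hippocampal values are a description.

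Leaving out each of the 18 arrays in turn kept the call on 13 of the 20 genes (limma). The call on Gm6498 ended without any 1 of the 6 hippocampus arrays (adjusted p = 0.0590 to 0.0836, limma), as did that on Ephx3, which also ended without array 2 of any muscle or heart group or wild type muscle array 1 (0.0518 to 0.113). Among hippocampus arrays, the call on Chchd5 held only without wild type array 2 (0.0566 to 0.0776 without the others), that on Mt2 only without wild type array 1 (0.0501 to 0.0610) and that on Cry2 only without wild type array 3 (0.0523 to 0.0755). Nfil3 lost its call on leaving out array 1 of either group, wild type array 3 or transgenic array 2 (0.0639 to 0.0691), and Wee1 without array 1 or 2 of either group (0.0540 to 0.0601).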

How the results depend on the processing

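In hippocampus 0 probe sets passed at an adjusted p under 0.05 under any alternative run, nor at 0.1, and the lowest adjusted p of a named gene was 0.190 (Klhdc7b, all 18 arrays in the fit). Of 110 genes followed, 98 kept their sign under every alternative, all 30 with the smallest p among them. The causes of the changes below were not tested. With all 18 arrays in the fit, 8 immediate early, 3 clock and 4 glucocorticoid-responsive genes were higher at an unadjusted p under 0.05. Glucocorticoid-responsive genes at that level numbered 11 with only probe sets of 1 symbol, 11 with an intensity trend and robust prior, and 11 with the mean of all probe sets; 1 immediate early gene was lower with the trend. Leaving out 1 array gave 9 to 14 immediate early genes higher and 0 to 1 lower, 2 to 6 clock genes higher and 0 to 2 lower, and 4 to 10 glucocorticoid-responsive genes higher. The replicate number did not pair the arrays (correlations of same-numbered deviations 0.01, 0.02 and −0.03, and −0.03 to 0.04 in muscle and heart). With it as a block 0 probe sets passed, 12 glucocorticoid-responsive genes were higher, and 166 probe sets differed between hippocampus and the striated tissues (472 without it). Of 20 named genes called in that comparison, with the block 9 had an adjusted p above 0.05 (limma): Klhdc7b, Gm6498, L3mbtl3, Nr1d2, Ciart, Wee1, Cry2, Ephx3 and Chchd5, at 0.0554 to 0.135. Without the block, leaving out 1 array, an alternative chosen after seeing the data, gave 247 to 464.

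Differences near 0 turned sign. Centring put Npas2 at 0.0084, Rcan1 at 0.0057, Gfap at 0.0022 and Aif1 at 0.0084. Quantile normalization put Npas2 at 0.0016, Calm3 at −0.043, Camk2a at −0.033, Ppp3ca at −0.050, Rcan1 at 0.010, Gria1 at −0.055 and Aif1 at 0.013. Array weights put Npas2 at 2.64e-04, Gfap at 0.0050 and Aif1 at 0.032. Leaving out 1 array gave Npas2 −0.039 to 0.048, Npas4 −0.12 to 0.24, Camk2a −0.023 to 0.067, Ppp3ca −0.017 to 0.063, Rcan1 −0.057 to 0.080, Pvalb −0.0097 to 0.13, Gria1 −0.029 to 0.054, Grin2a −0.030 to 0.16, Gfap −0.051 to 0.040, Aif1 −0.095 to 0.061 and Ttr −0.25 to 0.85.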
